A study of Mus musculus with 2 samples.

Results

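The CA3 pyramidal layer was examined through 100 array spots of 7260, 50 in a coronal brain section from each of 2 mice. CA3 is the hippocampal field whose pyramidal neurons receive mossy fibre synapses from dentate granule cells, excite each other through recurrent collaterals and project to CA1 through the Schaffer collaterals. Its pyramidal neurons are dense in kainate receptors at the mossy fibre synapse and are readily driven into synchronous bursts. The spots were chosen by expression: in each section, spots with at least 500 unique molecular identifiers (UMIs, which count captured RNA molecules), an array row of 45 or less and no UMI of Spink8 (CA1) or C1ql2 (dentate granule cells) were ranked by a score. The score is the mean over Bok, Homer3, Cabp7 and Grik4 of log1p(10000 × gene count / spot total), and the 50 spots of highest score were taken. Of 3712 and 3548 spots with at least 500 UMIs, 1708 in mouse 1 and 1222 in mouse 2 met the other conditions. A Visium spot is a small disc of tissue that can hold several cells of different types, so the levels below are those of tissue at the layer.

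Both mice expressed hM3Dq, an engineered receptor that excites neurons when bound by the drug CNO, both had been injected 4.6 mm posterior to bregma, and both had been given CNO. The genotype label was WT:C57BL/6J control for mouse 1 and WT:CRISPR-Cas9 edited isogenic control for mouse 2. Each was sampled with a section of 10 µm, cut 1.9 mm behind bregma, that held hippocampal spots on both sides of the midline. The mice form a single group (n = 2) and no untreated section was analysed here, so each comparison is between places within these sections. The sources used here do not give the promoter driving hM3Dq, the cells that carried it, the injected side of the image or the age of the mice.

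The CA3 spots held 384411 UMIs in mouse 1 and 755207 in mouse 2, with medians of 5898 and 13215.5 UMIs per spot, against 7578.5 and 14669.5 in all other spots. Mitochondrial genes took 10.7% and 13.8% of their UMIs, against 13.4% and 15.4% elsewhere. In the paragraphs that follow, paired values are those of mouse 1 and mouse 2 in that order, a level is in CPM, the gene's UMIs scaled to a fixed total of all UMIs in the summed spots, and a fold is a ratio of CPM with its exact 95% Poisson interval in brackets. The intervals cover counting error only, and fewer cells of a type and less RNA per cell cannot be told apart in such sums.

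Most of the CA3 spots lay at the lateral ends of the hippocampus. In mouse 1, 39 of 50 spots and in mouse 2, 46 of 50 formed 2 large groups, on the left and on the right of the image, below the lateral end of the arc of CA1 spots. A group here is at least 8 chosen spots linked by steps of up to 3 spot pitches, taken as 100 µm each. The left group had 14 and 31 spots and the right group 25 and 15. The groups lay 1.70 to 2.76 mm from the midline in mouse 1 and 1.38 to 2.68 mm in mouse 2. The remaining 11 and 4 spots were scattered, between 0.202 and 2.839 mm from the midline in mouse 1 and between 0.061 and 1.891 mm in mouse 2, and were kept, since the rule included them. Those 11 spots of mouse 1 had a median of 3958 UMIs, against 7258 in the large groups. By image side, 22 and 31 of all chosen spots were on the left, and 28 and 19 on the right.

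**Figure D1:**
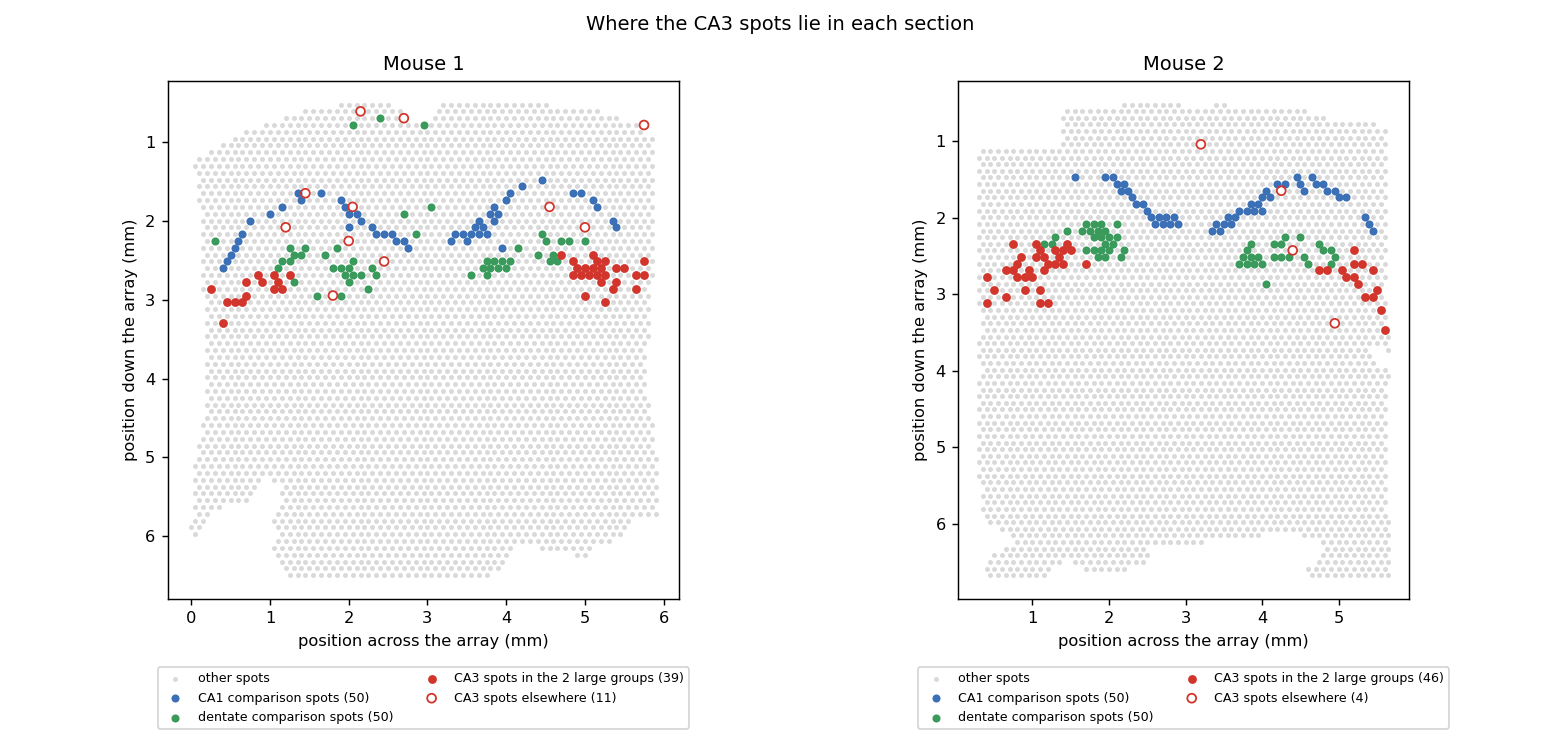
Position of each spot of at least 500 UMIs in the 2 sections, in mm across and down the array. The 39 and 46 filled red spots of the large groups sit at both outer ends of the hippocampus, below the blue CA1 arc and lateral to the green dentate spots, and the 11 and 4 open red circles lie elsewhere.

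The scores thinned out gradually toward the end of the ranking. The spot of rank 46 scored 0.645 and 0.587, the last chosen spot 0.632 and 0.580, the first spot left out 0.631 and 0.576, and the spot of rank 55 scored 0.607 and 0.568. No gap separated chosen from other spots, and the number of spots is set by the rule. All 4 score genes were detected together in 10 and 16 spots, 3 of them in 20 and 23, and 2 of them in 20 and 11.

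The values of the score genes follow from the choice and are given as a description. Bok, a member of the BCL-2 family (chromosome 1, 93685575 to 93695770, RefSeq on GRCm38.p6, as for all gene positions here), stood at 403 and 326 CPM in CA3 spots and at 90.1 and 96.3 CPM in all other spots. A chosen spot held between 0 and 14 Bok UMIs in mouse 1, with a median of 2, and between 0 and 16 in mouse 2, with a median of 4.5. Homer3, a postsynaptic scaffold that binds metabotropic glutamate receptors (chromosome 8, 70282880 to 70294361), stood at 112 and 102 CPM against 11.2 and 12.1 CPM elsewhere. Cabp7, a calcium-binding protein (chromosome 11, 4736892 to 4747179), reached 226 and 184 CPM against 19.3 and 28.8 CPM. Grik4, which encodes the high-affinity kainate receptor subunit GluK4 (chromosome 9, 42518182 to 42945000), reached 83.2 and 62.2 CPM against 10.8 and 14.5 CPM. Bok was thus broadly present outside the layer, while the other 3 score genes were scarce there. When each gene in turn was left out of the score and spots were chosen on the remaining 3, the gene left out was still higher in the chosen spots: by 2.91 and 2.37-fold for Bok, 7.36 and 6.42-fold for Homer3, 5.11 and 3.34-fold for Cabp7 and 5.30 and 3.37-fold for Grik4. In each case the gene given had no part in that choice of spots, but the other 3 score genes did. Between 58% and 86% of the spots so chosen were also chosen with all 4 genes. These folds are thus a description too.

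Further genes known from CA3 were compared as a description. Of 10 other CA3 markers, 9 had at least 20 UMIs over both mice, observed in or expected for the CA3 spots, and 4 of these 9 were at least 2-fold higher in both mice: Nectin3, Iyd, Rnf182 and Cpne4. Across all genes with that many UMIs, 153 of 7757 (1.97%) were at least 2-fold higher and 179 (2.31%) at least 2-fold lower in both mice. Because the spots were chosen in this same contrast, nothing is read from the counts of genes past the fold, here or in the lists below. The median log2 ratio of the 9 markers was 1.09 and 0.54, beside -0.04 and -0.03 over all 7757 genes.

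Nectin3, an immunoglobulin-like adhesion protein of puncta adherentia at mossy fibre synapses (chromosome 16, 46387665 to 46498535), stood at 78.0 and 58.3 CPM against 11.5 and 11.6 CPM, 6.79-fold [4.51 to 9.87] and 5.02-fold [3.61 to 6.82]. It was detected in 18 and 19 of 50 CA3 spots, and in 5 and 8 of the 50 spots of the CA1 and, separately, of the dentate comparison sets. Cpne4, a calcium-dependent phospholipid-binding copine (chromosome 9, 104566701 to 105034544), stood at 148 and 134 CPM against 46.3 and 47.9 CPM. Iyd, which encodes iodotyrosine deiodinase, rested on 12 and 12 UMIs, 9.45-fold [4.73 to 17.26] and 4.15-fold [2.11 to 7.40]. Rnf182, a ubiquitin ligase, was 3.14 and 3.13-fold higher.

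Among the listed CA3 markers, Coch went the other way, with 7.80 and 10.6 CPM against 27.0 and 22.3 CPM, on 3 and 8 UMIs. Nnat (208 and 215 CPM against 185 and 226 CPM) and Elavl2 (148 and 126 CPM against 97.6 and 111 CPM) were at nearly the level of other tissue. The label CA3 is that of the rule. Of the 9 listed markers measured, Nectin3, Iyd, Rnf182 and Cpne4 were past 2-fold higher, Coch past 2-fold lower and 4 neither.

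Outside the score and the marker list, the genes of largest difference included general markers of hippocampal pyramidal neurons as well as genes scarcer in CA1. Neurod6, a basic helix-loop-helix (bHLH) factor of excitatory forebrain neurons (chromosome 6, 55677818 to 55681263), stood at 416 and 361 CPM against 51.4 and 59.0 CPM, 8.09-fold [6.83 to 9.53] and 6.13-fold [5.40 to 6.94]. Single CA3 spots held from 0 to 20 Neurod6 UMIs in mouse 1 and from 0 to 29 in mouse 2, and 17 and 10 of 50 spots held none. Ccnd2, a D-type cyclin (chromosome 6, 127125162 to 127152188), was at 195 and 148 CPM against 21.8 and 24.9 CPM. Hs3st4, a heparan sulfate sulfotransferase (chromosome 7, 123982366 to 124398989), was at 182 and 162 CPM against 44.3 and 44.3 CPM. Chgb, a secretory granule protein (chromosome 2, 132781642 to 132795079), was at 1290 and 998 CPM against 261 and 282 CPM. Ak5, an adenylate kinase of brain, was 3.82 and 3.56-fold higher, and the copine Cpne6 was 6.68 and 4.52-fold higher. The scaffold Cnksr2 was 3.61 and 3.18-fold higher and the protein kinase C gene Prkca 6.01 and 3.65-fold higher. In each of these genes the fold was smaller in mouse 2.

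Promoters were searched for bHLH motifs, which factors of the Neurod family bind, in Neurod6, Hpca, Prkca, Hs3st4, Chgb, Gabra5 and Nectin3, all among the higher genes. The windows with a match are printed. The windows run from 250 bases before to 50 bases after an annotated start in RefSeq on GRCm38.p6, 5′ to 3′ on the gene's strand. Such a start need not be the outer end of the gene. The windows of Hpca and Gabra5 lie inside genes that extend to 129125919 and 57591016. Capitals mark matches of CAGATG or CAGCTG, searched on both strands. They come from 1 of 3 starts of Hpca (chr4:129121698-129121997, minus strand), from Chgb (chr2:132781392-132781691, plus strand) and from Gabra5 (chr7:57510010-57510309, minus strand).
Hpca: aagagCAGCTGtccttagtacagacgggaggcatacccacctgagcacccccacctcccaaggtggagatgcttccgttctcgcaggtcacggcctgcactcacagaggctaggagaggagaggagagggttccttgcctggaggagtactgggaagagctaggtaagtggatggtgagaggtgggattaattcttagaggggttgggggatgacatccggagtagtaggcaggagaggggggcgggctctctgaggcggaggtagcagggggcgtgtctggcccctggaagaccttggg
Chgb: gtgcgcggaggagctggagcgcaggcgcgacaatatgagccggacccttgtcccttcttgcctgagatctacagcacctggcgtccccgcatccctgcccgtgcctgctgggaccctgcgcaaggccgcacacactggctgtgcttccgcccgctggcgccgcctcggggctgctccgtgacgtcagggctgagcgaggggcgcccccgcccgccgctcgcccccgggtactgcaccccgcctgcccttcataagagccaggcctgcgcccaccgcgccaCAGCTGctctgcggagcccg
Gabra5: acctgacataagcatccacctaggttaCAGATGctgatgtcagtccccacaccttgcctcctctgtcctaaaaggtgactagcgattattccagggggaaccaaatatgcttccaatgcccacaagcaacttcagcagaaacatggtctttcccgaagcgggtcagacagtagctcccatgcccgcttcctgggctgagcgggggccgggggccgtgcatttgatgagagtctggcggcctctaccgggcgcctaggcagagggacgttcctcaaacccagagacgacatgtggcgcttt
The Hpca match starts 245 bases and the Gabra5 match 223 bases before the annotated start used. The Chgb match starts 30 bases after that of Chgb. A match to either motif was present in 21.9% of the 114 promoters matched to genes at least 2-fold higher in CA3 spots, in 29.7% of 138 for genes at least 2-fold lower, in 22.8% of 6203 promoters of measured genes, and in 30.4% of all 27025 promoters of the table. The windows of Neurod6, Prkca, Hs3st4 and Nectin3 held neither motif.

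Levels of the leading genes differed with distance from the CA3 spots. Bok went from 403 CPM in CA3 spots of mouse 1 to 170 CPM in the spots 1 pitch away and 90.1 CPM at 2 pitches, and from 326 to 226 and 140 CPM in mouse 2. As Bok is a score gene, its fall from the CA3 spots follows in part from their choice. Neurod6 went from 416 to 261 and 106 CPM in mouse 1, and from 361 to 225 and 139 CPM in mouse 2. Cpne4 had reached the level of the far tissue at 2 pitches in mouse 1 (35.7 CPM, against 47.5 CPM beyond 6 pitches) but not in mouse 2 (60.0 CPM against 47.6 CPM). In each of these 3 genes the level at 2 pitches was higher in mouse 2. Distances were taken from all CA3 spots, including the 11 and 4 outside the large groups, so the rings of the 2 mice are not alike.

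**Figure D2:**
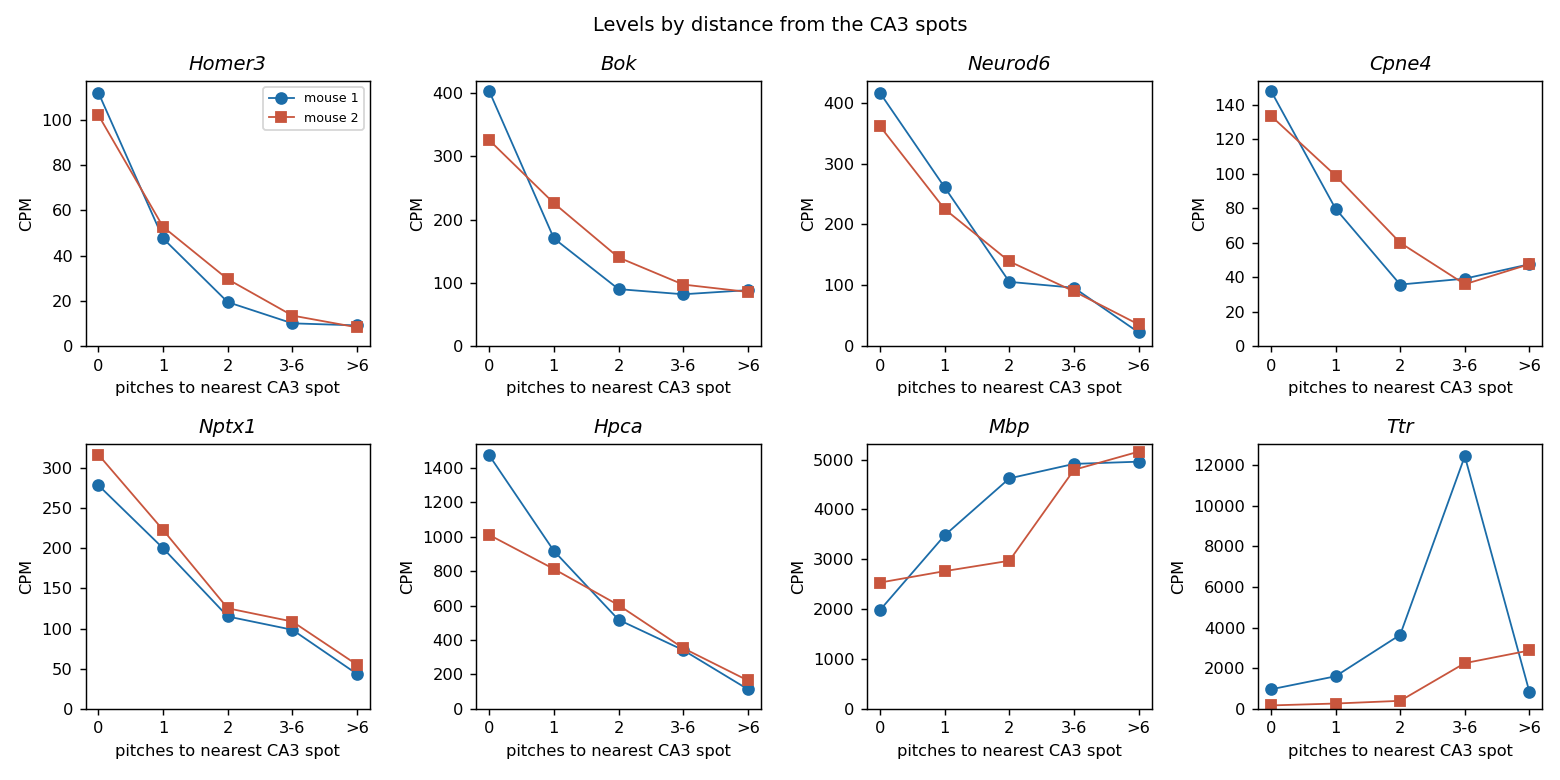
CPM of 8 genes against distance to the nearest CA3 spot, in spot pitches, for mouse 1 (blue circles) and mouse 2 (red squares), with each point a sum over all spots in that ring. The score genes Homer3 and Bok, on which the spots were chosen, and the neuronal genes are highest at 0. Mbp is lowest there (1982 and 2533 CPM), and Ttr of mouse 1 peaks at 3 to 6 pitches (12438 CPM).

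Among synaptic genes, the kainate receptor partner Neto1 and neuronal pentraxins were higher in CA3 spots. Neto1, an auxiliary subunit that slows kainate receptor currents at mossy fibre synapses, stood at 130 and 105 CPM against 22.7 and 26.2 CPM, 5.73-fold [4.21 to 7.64] and 3.99-fold [3.14 to 5.01]. It was the only kainate list gene of the 4 measured to pass 2-fold in both mice. Its relative Neto2 (2.13 and 1.48-fold) and the subunits Grik5 (1.60 and 1.58-fold) and Grik2 (1.71 and 1.29-fold) had smaller ratios. Nptx1, a secreted pentraxin that clusters AMPA receptors, stood at 278 and 316 CPM against 64.6 and 75.9 CPM, and its membrane-bound receptor Nptxr at 336 and 356 CPM against 79.2 and 104 CPM. The cadherin Cdh9, which acts in mossy fibre synapse formation, was 6.92 and 3.58-fold higher on 13 and 21 UMIs. These 3 were the synaptic adhesion genes past 2-fold, of 19 measured, and C1ql3, a secreted C1q-like synaptic organiser, was lower, with 1 and 6 UMIs in CA3 spots (2.60 and 7.94 CPM against 27.2 and 30.4 CPM).

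The other glutamate receptor lists also had few genes past 2-fold. Of 10 AMPA receptor and partner genes measured, 1 passed, the auxiliary subunit Cnih2 (593 and 489 CPM against 223 and 228 CPM), with Shisa6 at 1.99 and 2.05-fold and Gria1 at 2.53 and 1.82-fold. Of 5 NMDA receptor genes, Grin3a was lower at 5.20 and 10.6 CPM against 26.3 and 28.8 CPM, while Grin2a stood at 1.66 and 1.63-fold. Of 9 metabotropic receptor and scaffold genes, the presynaptic receptor Grm2 was lower, with 0 and 4 UMIs. The median log2 ratios were 0.93 and 0.61 for the kainate list, 0.83 and 0.37 for the AMPA list, 0.06 and -0.09 for the NMDA list and -0.06 and 0.02 for the metabotropic list.

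Presynaptic and calcium genes included several of high level. The vesicular glutamate transporter of cortical and hippocampal neurons, Slc17a7, stood at 669 and 662 CPM against 219 and 268 CPM, whereas the thalamic and brainstem transporter Slc17a6 stood at 23.4 and 101 CPM against 187 and 226 CPM. Complexin Cplx2, which clamps and promotes vesicle fusion, was 2.84 and 2.98-fold higher, and synaptotagmin Syt2 was lower on 1 and 6 UMIs. These 4 were all presynaptic genes past 2-fold in either direction, of 20 measured. Hpca, the neuronal calcium sensor hippocalcin (chromosome 4, 129111570 to 129125919), stood at 1472 and 1010 CPM against 212 and 248 CPM. The calcium release channel Ryr2 was 2.90 and 2.87-fold and the calcium-binding Cabp1 2.35 and 2.12-fold higher, which with Hpca made 3 of 20 calcium genes past 2-fold. The calcineurin subunit Ppp3ca, at 1496 and 1393 CPM, was 2.31-fold higher in mouse 1 and 1.82-fold in mouse 2.

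Channels and receptors of excitability gave few large ratios. Of 26 ion channel genes, Kcnip2, which modulates A-type potassium channels, was 3.80 and 2.69-fold higher, Kcnq5, an M-current subunit, 2.59 and 2.79-fold higher, and Kcnh7 lower (13.0 and 9.27 CPM against 27.7 and 31.9 CPM). Of 10 GABA-A receptor genes, Gabra5, the subunit of extrasynaptic tonic inhibition in the hippocampus, was the only gene past 2-fold, at 177 and 150 CPM against 38.1 and 44.3 CPM. The muscarinic receptor Chrm1 was 3.01 and 2.75-fold higher, 1 of 4 cholinergic receptor genes measured. The mineralocorticoid receptor Nr3c2 was 2.27 and 2.41-fold higher, 1 of 5 corticosteroid genes, while the glucocorticoid receptor Nr3c1 stood at 0.72 and 0.75 of its level elsewhere.

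Of 17 measured transcription factors of the hippocampal field, 6 were past 2-fold higher and 1 past 2-fold lower, with a median log2 ratio of 1.07 and 0.87. Besides Neurod6, the related Neurod2 stood at 107 and 126 CPM against 22.6 and 36.0 CPM and the LIM-domain regulator Lmo4 at 343 and 369 CPM against 110 and 133 CPM. Nr2f2, a nuclear receptor of caudal cortex and interneurons, was lower at 7.80 and 14.6 CPM against 42.9 and 50.7 CPM.

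**Figure D3:**
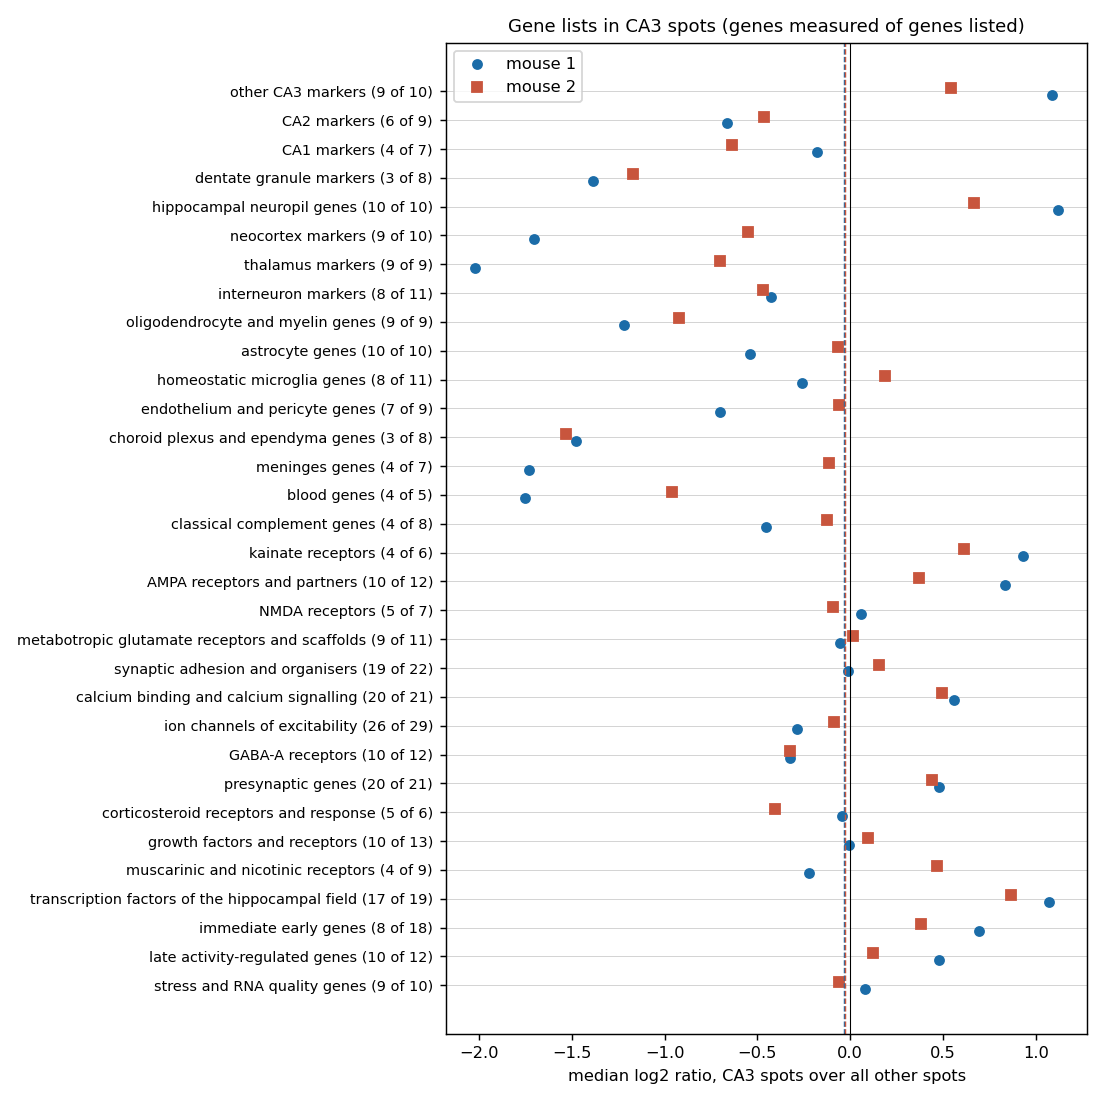
Median log2 ratio of CPM, CA3 spots over all other spots, for each gene list with at least 3 measured genes, in mouse 1 (blue circles) and mouse 2 (red squares). Dashed lines mark the medians over all 7757 genes (-0.04 and -0.03). Lists of CA3 markers, neuropil genes and transcription factors lie to the right, and thalamus, myelin and choroid plexus lists to the left.

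Among genes induced by neuronal activity, Nr4a3 was higher in CA3 spots, while Arc, Fos and Npas4 had few UMIs or none. The immediate early list summed to 497 and 485 CPM against 386 and 420 CPM, with a median log2 ratio of 0.69 and 0.38. Of 18 immediate early genes listed, 8 were measured and 1 passed 2-fold, the orphan nuclear receptor Nr4a3, at 72.8 and 90.0 CPM against 13.4 and 17.6 CPM, 5.43-fold [3.57 to 7.97] and 5.11-fold [3.93 to 6.53]. It was detected in 16 and 26 of 50 CA3 spots, 22 and 36 of the CA1 set and 6 and 15 of the dentate set. Egr1, a zinc-finger factor used widely as an activity marker, stood at 75.4 and 87.4 CPM against 79.6 and 96.9 CPM. Arc, a regulator of AMPA receptor trafficking, had 8 and 12 UMIs (20.8 and 15.9 CPM against 15.8 and 14.3 CPM), Fos had 4 and 7 UMIs, and Npas4 had 0 in both mice, which allows up to 3. Of 10 late activity-regulated genes measured, 0 were past 2-fold in both mice, and that list summed to 1389 and 1479 CPM against 1056 and 1222 CPM. Bdnf, a neurotrophin of mossy fibres and CA3, was 4.99-fold [3.55 to 6.85] higher in mouse 1 and 1.79-fold [1.27 to 2.44] in mouse 2, with intervals that do not overlap. Without an untreated section these levels cannot be related to hM3Dq or CNO.

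The genes named in the study's title were near or below the level of other tissue. C1q, made in brain mainly by microglia, starts the classical complement cascade and can tag synapses. C1qa (chromosome 4, 136895916 to 136898844) stood at 65.0 and 58.3 CPM in CA3 spots against 83.4 and 70.4 CPM, a ratio of 0.78 [0.50 to 1.15] and 0.83 [0.60 to 1.11]. C1qb (chromosome 4, 136880126 to 136886200) stood at 57.2 and 74.2 CPM against 83.9 and 73.1 CPM, and C1qc (chromosome 4, 136889801 to 136892936) at 62.4 and 50.3 CPM against 67.7 and 61.6 CPM. All 6 intervals include 1. Beside them, 8 measured homeostatic microglia genes had 0 past 2-fold and a summed level of 351 and 401 CPM against 401 and 372 CPM. In spots of the CA1 set C1qa stood at 60.0 and 41.0 CPM and in those of the dentate set at 59.4 and 53.3 CPM.

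Immunoglobulin transcripts were few. Igkc, the immunoglobulin kappa constant region (chromosome 6, 70726435 to 70726754), had 4 and 7 UMIs in CA3 spots, 10.4 and 9.27 CPM against 34.6 and 13.5 CPM, a ratio of 0.30 [0.08 to 0.77] and 0.68 [0.27 to 1.42]. In mouse 1 all 4 UMIs came from 2 of the 11 spots outside the large groups, and the 39 spots of the large groups had none. Ighm, the heavy chain of IgM, had 5 and 8 UMIs (13.0 and 10.6 CPM against 27.7 and 23.9 CPM). All 4 and 7 Igkc UMIs were on the image left, and the right CA3 spots had 0 in both mice, a count that allows up to 3. Igkc was also higher on the left in all other spots, with 57.1 CPM against 11.0 CPM in mouse 1 and 22.7 CPM against 4.45 CPM in mouse 2. The CA3 counts were too low for the test of sides within CA3 spots. With a count of 0 on one side, a difference between CA3 and other spots in this respect was not detectable at this depth.

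Markers of other cells and regions were mostly lower in CA3 spots than elsewhere. Of 6 CA2 markers measured, 0 were past 2-fold in either direction. The CA2 list summed to 718 and 1739 CPM, against 3088 and 2987 CPM elsewhere and 524 and 443 CPM in the CA1 set. The rule held no condition on CA2 genes, so CA3 was not set apart from CA2 here. Among 9 thalamus markers, 3 were past 2-fold lower (Tcf7l2, Ntng1 and Synpo2), none of the 9 was at 0, and the list summed to 401 CPM in mouse 1 and 1110 CPM in mouse 2, against 1598 and 1835 CPM elsewhere. Prkcd, a thalamic protein kinase C, was detected in 18 and 43 of 50 spots (72.8 and 319 CPM). Myelin genes had 2 of 9 past 2-fold lower, among them the tight junction gene Cldn11 (0.48 and 0.49 of its level elsewhere), and summed to 4558 and 5588 CPM against 11124 and 11587 CPM. The choroid plexus genes Ttr (957 and 166 CPM against 3609 and 2534 CPM) and Enpp2 (297 and 169 CPM against 612 and 490 CPM) were lower, with 3 of 8 genes of that list at 0 in each mouse. Of 10 astrocyte genes 0 were past 2-fold, with the glutamate transporter Slc1a2 at 1069 and 1100 CPM against 793 and 838 CPM.

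Interneuron and blood genes differed less uniformly. Among 8 measured interneuron genes Pvalb was lower (174 and 139 CPM against 412 and 317 CPM) and the cannabinoid receptor Cnr1, which glutamatergic terminals also carry, higher (93.6 and 99.3 CPM against 41.6 and 43.9 CPM). The mossy cell and interneuron gene Calb2 was at 23.4 and 23.8 CPM against 89.9 and 103 CPM. Haemoglobin genes were lower too, with Hba-a2 at 28.6 and 238 CPM against 177 and 558 CPM, although reads of Hba-a1 and Hba-a2, and of Hbb-bs and Hbb-bt, may be shared between near-identical copies. Of the stress and RNA quality genes, the heat shock gene Hspa1b was higher on 13 and 13 UMIs (33.8 and 17.2 CPM against 6.01 and 6.82 CPM), and the other 8 measured were not past 2-fold. The part of these cells in the CA3 levels was not tested.

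The fields next to CA3 in the circuit gave a closer comparison. The CA1 and dentate comparison sets were the 50 spots per section of highest score over Spink8, Wfs1, Fibcd1 and Pou3f1, and over C1ql2, Prox1, Dsp and Tdo2. They too were chosen by expression, on genes of the CA1 and dentate marker lists, and the CA3 rule excluded Spink8 and C1ql2, so these values are again descriptions. Against CA1 spots, 257 of 7820 genes (3.29%) were at least 2-fold higher in CA3 spots in both mice and 310 (3.96%) lower. Against dentate spots, 142 of 7796 (1.82%) were higher and 239 (3.07%) lower. Nothing is read from these counts.

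Several genes that led against all other tissue were as high in CA1 or higher. Neurod6 stood at 548 and 603 CPM in CA1 spots, against 416 and 361 CPM in CA3, and Hpca at 2205 and 2341 CPM, against 1472 and 1010 CPM. Gabra5 (294 and 334 CPM in CA1), Nr3c2 (160 and 193 CPM), Chrm1 (120 and 144 CPM) and Kcnip2 (182 and 171 CPM) were likewise higher in CA1 than in CA3. Nr4a3 was similar in both fields (56.0 and 76.7 CPM in CA1). These genes thus marked CA3 off from most of the section and from the dentate set in the case of Neurod6 (51.6 and 62.4 CPM), but not from CA1.

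A second group separated CA3 from CA1. Cpne4 stood at 16.0 and 7.13 CPM in CA1, a CA3 to CA1 ratio of 9.26 and 18.75, and Nectin3 at 10.0 and 7.13 CPM, a ratio of 7.80 and 8.17. Iyd had no UMI in the CA1 spots of either mouse. Ccnd2 was 6.09 and 5.94-fold, Hs3st4 5.06 and 2.97-fold, Neto1 4.64 and 3.35-fold, Ak5 3.85 and 4.05-fold, and Nptxr 3.73 and 3.25-fold higher in CA3 than in CA1. Of the 8 other CA3 markers measured in this comparison 7 were past 2-fold higher, among them Nnat (4.33 and 3.54-fold) and Elavl2 (4.36 and 3.81-fold), which had stood near the level of other tissue above. All 7 CA1 markers were past 2-fold lower, but Wfs1, Fibcd1 and Pou3f1 among them had chosen the CA1 set. Wfs1 stood at 28.6 and 33.1 CPM against 274 and 397 CPM. Of 8 thalamus markers measured against CA1, 7 were also past 2-fold higher in CA3 spots. The thalamus list summed to 401 and 1110 CPM against 118 and 152 CPM in CA1. Myelin genes summed to 4558 and 5588 CPM against 2737 and 2584 CPM, with 1 of 9 past 2-fold higher. The part of such tissue in the CA3 to CA1 ratios was not tested.

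Against the dentate set, CA3 spots had less Prox1, the granule cell fate factor (10.4 and 15.9 CPM against 101 and 157 CPM), and less of the calcium buffer Calb1 (26.0 and 33.1 CPM against 201 and 263 CPM). All 8 dentate markers were past 2-fold lower, but Prox1, Dsp and Tdo2 among them had chosen the dentate set. Of the 8 other CA3 markers measured, 7 were past 2-fold higher. C1ql3 stood at 232 and 288 CPM in dentate spots, and Grm2 at 31.0 and 68.4 CPM. Hs3st4 was 6.41 and 6.98-fold and Nectin3 6.05 and 7.24-fold higher in CA3 than in dentate spots. Nptx1 was higher than in the dentate set in mouse 1 (278 against 165 CPM) but not in mouse 2 (316 against 365 CPM). Cdh9 stood at 28.4 and 70.4 CPM in dentate spots, against 33.8 and 27.8 CPM in CA3 spots, so it did not set CA3 apart from the dentate set.

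Of 10 immediate early genes measured against CA1, 1 was past 2-fold higher in CA3 spots, 2 past 2-fold lower and 7 neither. The higher gene was Jun (ratios of 2.60 and 5.05), the lower genes were Egr1 (0.32 and 0.29) and Nr4a1 (0.24 and 0.13), and Arc stood at 0.52 and 0.48. Egr1 stood at 234 and 299 CPM in CA1 spots and at 101 and 70.4 CPM in dentate spots. Bdnf differed between the mice here as well, at 1.40 and 0.48 times its CA1 level. NMDA subunit genes were also lower than in CA1, Grin2a at 0.43 and 0.35 and Grin2b at 0.38 and 0.43 of the CA1 level. CA1 spots had medians of 10322 and 21394 UMIs and dentate spots 7810 and 19171, so CA3 spots had the lowest median depth of the 3 sets in both mice. Only the CA3 rule required spots with no UMI of Spink8 or C1ql2, and the part of that condition in the depth was not tested.

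**Figure D4:**
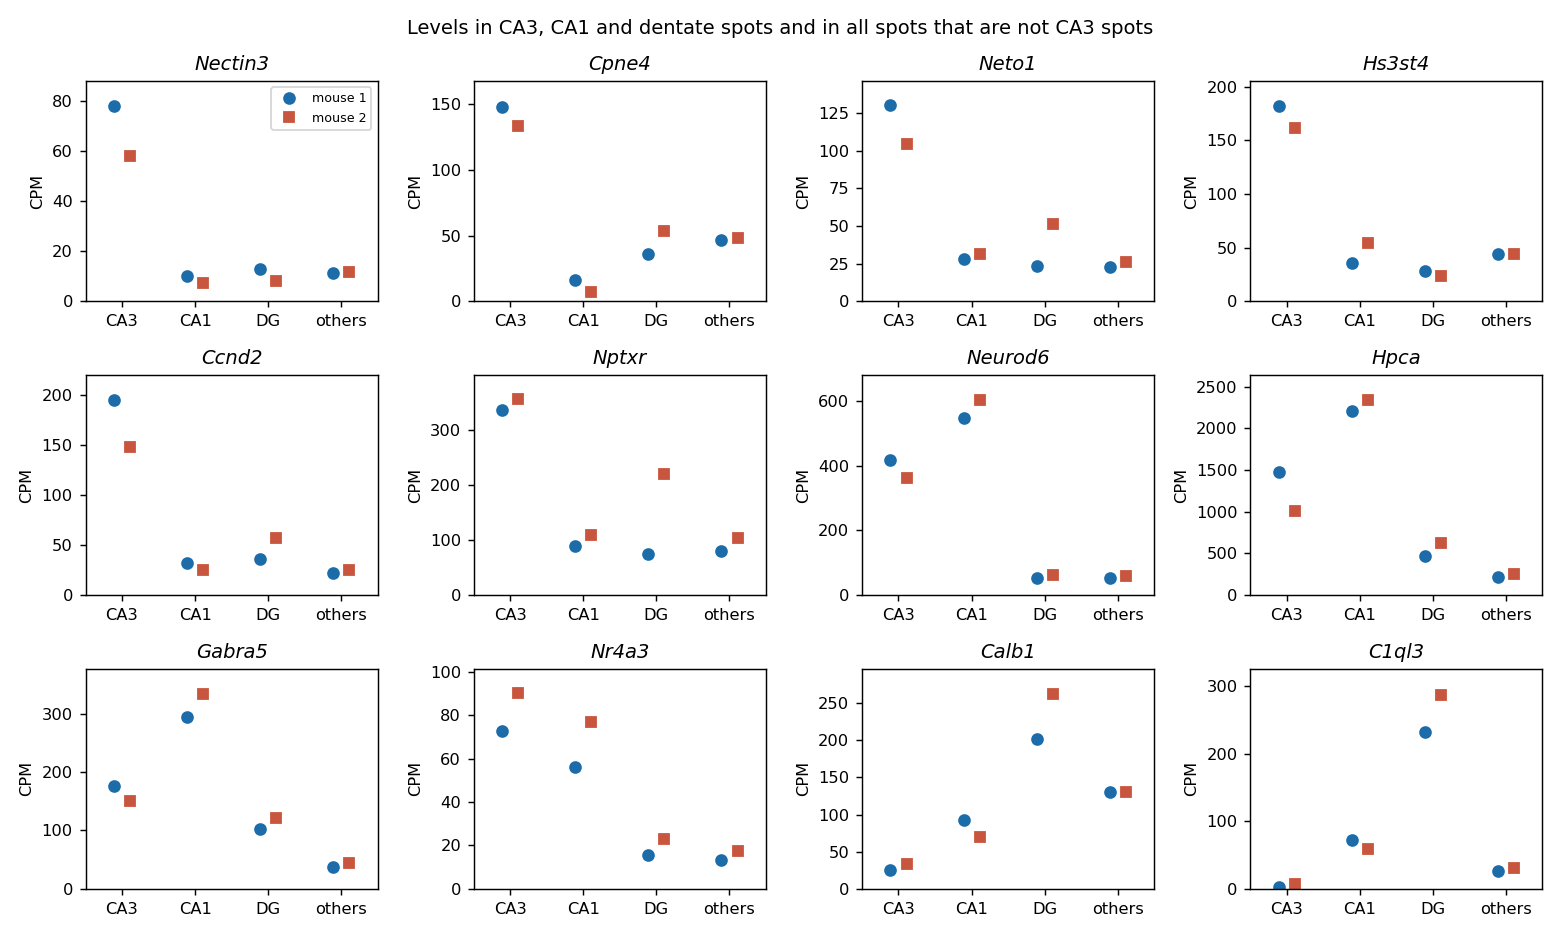
CPM of 12 genes in CA3, CA1 and dentate (DG) spots and in all spots that are not CA3 spots (others), with 1 point per mouse on axes that start at 0. Nectin3, Cpne4, Neto1, Hs3st4, Ccnd2 and Nptxr are highest in CA3 spots in both mice, Neurod6, Hpca and Gabra5 in CA1 spots, and Calb1 and C1ql3 in dentate spots.

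Place within the layer was not used by the choice beyond the limit on the array row, and was tested. The CA3 spots were summed per mouse and position, and the sums were compared with edgeR's quasi-likelihood test with mouse as a block and Benjamini-Hochberg adjustment over all genes tested, called at 0.05. The tests within CA3 spots had 4 sums and 1 residual degree of freedom, and the test against other spots 8 sums and 2. Their errors therefore come from a spread pooled over genes. Except in the test of left against right within CA3 spots, the weight of that pooled spread was unbounded. A gene's own spread between mice then had no part, and its SE and p-value do not measure it. The values of single mice stand beside them. Spots are not replicates and entered only through these sums. The filter on low counts did not need enough UMIs in every sum, so a gene could enter through the sums where it was high. Large differences of genes with few UMIs in the other sums follow in part from that.

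No side difference was called in CA3 spots. Of 4419 genes, 0 (0%) passed toward the left and 0 (0%) toward the right, with 152 at an unadjusted p under 0.05 and a smallest adjusted p of 0.188 in edgeR, and DESeq2 called 0, with 3 at an unadjusted p under 0.05. C1qa stood at 72.9 CPM left and 57.2 CPM right in mouse 1 and at 50.4 and 67.9 CPM in mouse 2. The log2 difference of left over right was -0.11 ± 0.38 (SE), with the mice on opposite sides of 0. C1qb (-0.45 ± 0.36), C1qc (-0.07 ± 0.40) and Egr1 (0.03 ± 0.34) were not called either. The difference of the side difference from that of all other spots was called for 0 of 14271 genes (0% in either direction), with 592 at an unadjusted p under 0.05 in edgeR and 462 in DESeq2, which also called 0.

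Thalamus markers were higher in the lower CA3 spots than in the upper ones. Spots on each side of each section were split at their median along the image vertical, and of 5039 genes 32 (0.635%) were called higher and 44 (0.873%) lower in the lower spots. All 6 thalamus markers tested were among the 32 (Tcf7l2, Prkcd, Rora, Tnnt1, Adarb1 and Ntng1), with a list median log2 difference of 1.67 beside -0.01 over all genes, as were 3 of 9 myelin genes. Of 9 listed thalamus markers, 6 passed the filter here and 8 in the test of sides. The count of thalamus markers called and their median thus depend in part on the filter. The thalamus list summed to 533 CPM in lower and 198 CPM in upper spots of mouse 1, and to 1693 and 534 CPM in mouse 2. The lower spots were higher in both mice, although the lower sum of mouse 1 did not exceed the upper sum of mouse 2.

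Slc17a6, the thalamic glutamate transporter, had 9 UMIs in lower and 0 in upper spots of mouse 1, and 64 and 12 in mouse 2 (171 and 31.6 CPM). Its log2 difference was 2.49 ± 0.42 (SE; edgeR adjusted p = 4.87e-06). Tcf7l2, a Wnt pathway factor that specifies thalamus, stood at 85.9 and 6.60 CPM in lower and upper spots of mouse 1 and at 168 and 42.1 CPM in mouse 2. In mouse 1, 10 of its 20 UMIs in lower spots came from 1 spot outside the large groups. Plcb4, a phospholipase C, went from 26.4 to 68.7 CPM and from 31.6 to 173 CPM between upper and lower spots, and Rora, a nuclear receptor, from 33.0 to 85.9 CPM and from 68.4 to 264 CPM. Ermn, a protein of myelinating oligodendrocytes, went from 6.60 to 94.5 CPM and from 23.7 to 96.0 CPM. Zic1, a zinc-finger factor, was at 34.4 and 6.60 CPM and at 139 and 31.6 CPM. Tnnt1, Amotl1, Mb21d2 and Yeats2 completed the 10 largest with both mice in the same direction, Yeats2 on 8, 0, 14 and 1 UMIs only.

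Among the 44 genes lower in the lower spots were 2 of 10 hippocampal neuropil genes. Map2, the microtubule protein of dendrites, stood at 163 CPM in lower and 369 CPM in upper spots of mouse 1 and at 184 and 434 CPM in mouse 2, a log2 difference of -1.30 ± 0.21 (SE; edgeR adjusted p = 1.87e-06). Ddn, a dendritic mRNA encoding dendrin, stood at 133 and 211 CPM and at 107 and 266 CPM (-1.16 ± 0.25). Camk2n1, an inhibitor of CaM kinase II, stood at 954 and 1280 CPM and at 776 and 1528 CPM. Mpped1, listed here as a CA1 marker, had 1 and 2 UMIs in lower and 9 and 13 in upper spots, and Lamp5, listed here as a neocortex marker, had 8 and 5 in lower and 7 and 30 in upper spots. Sowaha, S1pr1, Ncor1 and 9930021J03Rik were also among the 10 largest with both mice in the same direction.

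The ribosomal protein genes were noticed after their values were seen. Of 85 tested, 25 were called lower and 0 higher in lower spots, beside 0.873% of all genes called lower, and their median log2 difference was -0.42. The count was 8 of 85 with library totals, 1 of 84 with isolated spots left out and 0 of 85 with no block. It was 14 of 92 with DESeq2, 25 of 92 with no filter on low counts, 20 of 83 with 30 top spots and 50 of 87 with 80 top spots. With the spots outside the large groups left out, a setting added after the data were seen, 0 of 84 were called and the median was -0.25. In mouse 1, 10 of those 11 spots were upper spots, and upper spots had a median of 4258 UMIs against 8695 in lower spots, beside 12774 and 13902.5 in mouse 2. The part of depth in this difference was not tested.

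The position calls rest on the mouse block and on the pooled spread. Without the block edgeR called 0 genes in either direction, with 287 at an unadjusted p under 0.05, and DESeq2 called 4 higher and 18 lower, all 22 among the 76. With the large groups only, 30 genes were called higher and 8 lower, of which 26 were among the 76, with Map2 (-1.34), Ddn (-1.08), Rora (1.88) and Tnnt1 (1.83) still called. Tcf7l2 was not called on the 30 top spots (0.78) or with isolated spots left out (1.01).

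Along the other axis, fewer genes differed. Spots were split on each side at their median distance from the midline, which gave medians of 1.85 and 1.83 mm for inner and 2.37 and 2.31 mm for outer spots. Of the spots outside the large groups, 10 and 4 were inner and 1 and 0 outer. Their part in the differences was not tested. Of 4334 genes, 5 (0.115%) were called higher and 1 (0.0231%) lower in outer spots. Crym, a thyroid hormone-binding protein of deep cortex and hippocampus, stood at 304 CPM in outer and 87.0 CPM in inner spots of mouse 1 and at 198 and 67.2 CPM in mouse 2, a log2 difference of 1.67 ± 0.27 (SE; edgeR adjusted p = 1.61e-06). Lmo4 was lower in outer spots, at 269 CPM against 424 CPM in mouse 1 and 244 CPM against 463 CPM in mouse 2 (-0.79 ± 0.19). Outer and inner sums of both genes did not overlap across the 2 mice.

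Other outer genes are known from choroid plexus, meninges and oligodendrocytes. Ttr, the choroid plexus transthyretin, stood at 1436 and 435 CPM in outer and inner spots of mouse 1 but at 176 and 157 CPM in mouse 2. Ptgds, made by meninges and oligodendrocytes, stood at 693 and 451 CPM and at 1401 and 711 CPM. Car2, an oligodendrocyte carbonic anhydrase, was higher in outer spots of both mice (0.85 ± 0.21). C1qc, at 79.8 and 43.5 CPM and at 68.0 and 37.1 CPM, had a log2 difference of 0.89 ± 0.41 and did not pass (edgeR adjusted p = 0.748), and C1qa stood at 0.03 ± 0.38. Without the block edgeR called 0 genes (145 at an unadjusted p under 0.05), DESeq2 called 0 (12 unadjusted), and with isolated spots left out edgeR called 2, of which 0 were among the 6. Of the 6 genes, edgeR called 6 with the large groups only, and 5 each with 30 top spots and library totals. It called 4 of them with no filter on low counts and 1 with 80 top spots. On the 80 top spots Ptgds (-0.14) and Lmo4 (0.077) changed sign.

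**Figure D5:**
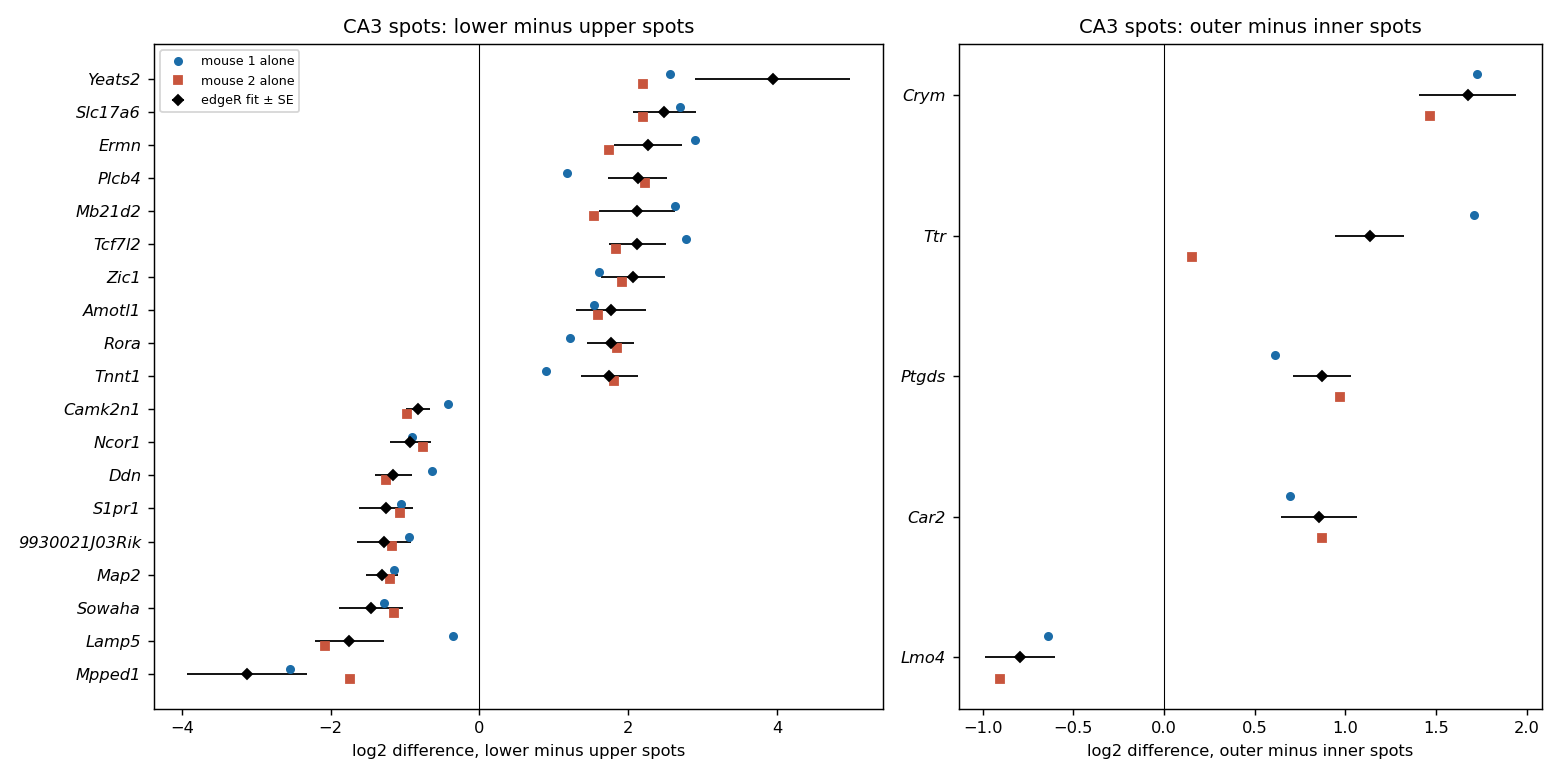
Log2 difference between lower and upper CA3 spots (left) and outer and inner CA3 spots (right) for genes named from each test, as the edgeR fit ± SE (black) and for each mouse alone with 2 UMIs added to each count (blue and red). Genes were named only where both mice had the sign of the fit, so the shared sign follows from that choice. Ttr differs most between the mice on the right (1.71 and 0.16).

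Of the score genes, Grik4 went from 48.9 CPM in inner to 115 CPM in outer spots of mouse 1 and from 60.2 to 64.9 CPM in mouse 2, and Homer3 from 97.9 to 125 CPM and from 111 to 89.7 CPM. Bok stood between 315 and 424 CPM and Cabp7 between 164 and 239 CPM in these 4 sums. As the score chose the spots on these genes, they are described without a test.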

How the data were processed

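Spatial RNA counts were deposited for 2 sections of 1 group. Per the file headers, the authors obtained UMI counts per gene and spot from Space Ranger 1.3.1, and per the submitters' processing notes the build was mm10. The tables hold 32285 genes, and spots of at least 500 UMIs were used. Counts were summed per mouse over CA3 spots, CA1 spots, dentate spots and all other spots, and expressed as CPM. Genes with at least 20 UMIs over both mice, observed in CA3 spots or expected there, were compared, a rule that treats higher and lower genes alike. Array positions fall at the same places in both sections (3369 shared), so position codes do not identify a mouse and were kept apart by section.

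Position tests used edgeR 4.0.16 (TMM, filterByExpr, quasi-likelihood) in R 4.3.3, with DESeq2 1.42.0 as an alternative, on deposited counts, and were tested on simulated data. Both sums of a mouse come from the same animal, which is the pairing behind the block. Named genes were the score genes, C1q and Igkc, up to 4 per list and 15 overall by the smaller fold, and the 10 largest calls per direction. Those calls were named only where both mice had the sign of the fit. Other genes, the large groups of spots and the ribosomal genes were chosen after values were seen. The members and lists were chosen with earlier results of these data known. Promoters are from RefSeq. Some items are not reported here.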

Additional observations from a re-analysis of the deposited data

How the results depend on the processing

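With 1 choice changed at a time, the 153 higher and 179 lower genes became 69 and 87 with 80 top spots, 320 and 455 with no zero count condition, and 73 and 85 with a score without Cabp7. The lower genes numbered 114 with no array row limit and 111 with a score without Grik4. With either mouse left out the higher genes numbered 197 to 360 and the lower genes 298 to 779. Without the zero count condition Spink8 turned to 3.68-fold, and with the score without Cabp7 Synpo2 stood at 1.0-fold. Only 31 and 21 of the 50 spots chosen without the zero count condition were CA3 spots of the main rule. With the score without Cabp7 these were 29 and 33 of 50. Between sides, 80 top spots gave 1 and 3 calls. Between outer and inner spots, calls higher and lower were 0 and 0 with DESeq2, 0 and 0 with no replicate block, 10 and 4 with 30 top spots, 19 and 29 with 80 top spots, and 2 and 0 with isolated spots left out. They were 14 higher with the large groups only and 2 lower with library totals. On 80 top spots Ptgds turned to -0.14 and Lmo4 to 0.077. Between lower and upper spots, calls were 4 and 18 with DESeq2, 0 and 0 with no replicate block, 281 and 298 with 80 top spots, and 12 and 6 with isolated spots left out. They were 8 higher with 30 top spots, 15 lower with library totals and 8 lower with the large groups only. The cause of these changes was not tested. With 2 mice, 1 residual degree of freedom and CA3 sums of 384411 and 755207 UMIs, genes of a few UMIs could not be tested.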
